A study of Homo sapiens with 16 samples.

Results

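The 2 mature arms of the hypoxia-induced microRNA miR-210, miR-210-3p and miR-210-5p, were followed in esophageal adenocarcinoma cells treated with telmisartan. They are 2 of the 2565 human miRNA probes of the array, and were chosen by the difference between telmisartan and control in these arrays, where miR-210-3p had the largest rise. The treatment values of both arms are therefore given as a description, without a test. OE19 is an established human esophageal adenocarcinoma cell line. The telmisartan group (n = 8 arrays) was OE19 cells exposed to 100 μM telmisartan, an angiotensin II type 1 receptor blocker, for 48 h, and the control group (n = 8 arrays) was OE19 cells without the drug. All arrays come from this 1 cell line. Nothing in the sources used here ties the 8 arrays in each group to separate cultures. The p-values therefore speak only of array-to-array spread, which may be technical.

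miR-210 is the miRNA most regularly induced in low oxygen. Its gene lies within the long non-coding RNA gene MIR210HG, and the hypoxia-inducible factors, HIF-1 above all, drive its transcription when oxygen falls. One precursor hairpin gives both arms. The 3p arm is the guide strand that is loaded into Argonaute and lowers targets such as ISCU, an iron-sulfur cluster scaffold of mitochondria, and EFNA3, an ephrin ligand of blood vessel cells, while the 5p arm is mostly degraded. No hypoxia treatment or mRNA measurement is among the samples analysed here.

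The arms and the hairpin are shown because the results turn on how differently the 2 arms were measured. The sequences are those of RefSeq on GRCh38.p14, 5′ to 3′. MIR210 lies on the minus strand at chr11:568089-568198, inside MIR210HG (chr11:565657-568457). Capitals mark the seed, bases 2 to 8, which pairs with targets, in the mature arms, and mark the 2 arms in the hairpin.
hsa-miR-210-3p: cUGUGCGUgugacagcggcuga
hsa-miR-210-5p: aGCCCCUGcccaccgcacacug
hsa-mir-210 hairpin: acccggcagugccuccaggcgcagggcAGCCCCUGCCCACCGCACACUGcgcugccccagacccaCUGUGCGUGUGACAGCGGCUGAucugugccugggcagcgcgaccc
The 5p arm occupies bases 28 to 49 of the 110-base hairpin, and the 3p arm bases 66 to 87. Neither seed was shared with any other of the 2370 mature sequences of the table. Over bases 2 to 7 alone, the 3p seed matched 1 other miRNA, hsa-miR-147b-3p, and the 5p seed matched 1 other, hsa-miR-4749-3p.

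Probes of similar sequence could pick up the same RNA, so the array was searched for stretches in common with miR-210-3p. Of 2588 miRNA names on the array, 2281 matched a mature sequence, and none of these shared 9 or more consecutive bases with miR-210-3p. The longest stretch in common was 8 bases, in 4 miRNAs, and is shown in capitals.
hsa-miR-122-5p: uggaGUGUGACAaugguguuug
hsa-miR-2277-3p: UGACAGCGcccugccuggcuc
hsa-miR-449c-5p: uaggcaguguauugcuAGCGGCUGu
hsa-miR-6729-5p: ugggcgaggGCGGCUGAgcggc
miR-122-5p was above its array's detection level on 2 telmisartan and 1 control arrays, and miR-2277-3p on 3 telmisartan and 2 control arrays. miR-449c-5p was detected on none. miR-6729-5p was detected on all 16 arrays, with a log2 fold change of -0.11 (limma, adjusted p = 0.584).

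A probe counted as detected on an array when its intensity exceeded that array's background by 2 SD. Telmisartan arrays had 458 to 1885 detected probes (median 931) and control arrays 454 to 1621 (median 804). The normalized table held the 382 probes detected on all 16 arrays, among them miR-210-3p and not miR-210-5p. The labels number the arrays of each group 1 to 8 and name no batch, yet arrays 1 to 4 and arrays 5 to 8 stood apart. In the fit with 4 groups, 40 of the 382 probes (10.5%) differed between the sets within telmisartan and 275 (72%) within control, at an adjusted p under 0.05 by limma. The values of miR-210 and the folds of the list members that passed are therefore also given for each set. All 6 miRNAs listed as markers of columnar epithelium were detected on all 16 arrays. With telmisartan 2 of them were lower, miR-141-3p at 0.566 of control (limma, adjusted p = 0.00222) and miR-194-5p at 0.819 (limma, adjusted p = 0.0313), and 4 did not pass. The share called was 33.3% of these 6, against 17% of the 382 probes, where 7.33% were lower. The part of these markers in the results that follow was not tested. Of 8 markers of other cell types, only miR-126-3p, an endothelial miRNA, was detected on all 16, and the other 7 on between 1 and 8 arrays.

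miR-210-3p was several-fold higher on telmisartan arrays, with no overlap between the groups. Its normalized intensities on telmisartan arrays 1 to 8 were 463, 564, 593, 477, 304, 277, 329 and 230.0, against 81.7, 80.3, 77.1, 69.0, 71.3, 69.0, 65.6 and 71.3 on control arrays 1 to 8. The lowest telmisartan array was 2.81 times the highest control array. The telmisartan values also lay in 2 tiers, with arrays 1 to 4 all above arrays 5 to 8, whereas the control values lay within a narrow band. Without scaling between arrays the control band was wider, with background-subtracted intensities from 46.6 to 93.8.

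**Figure D1:**
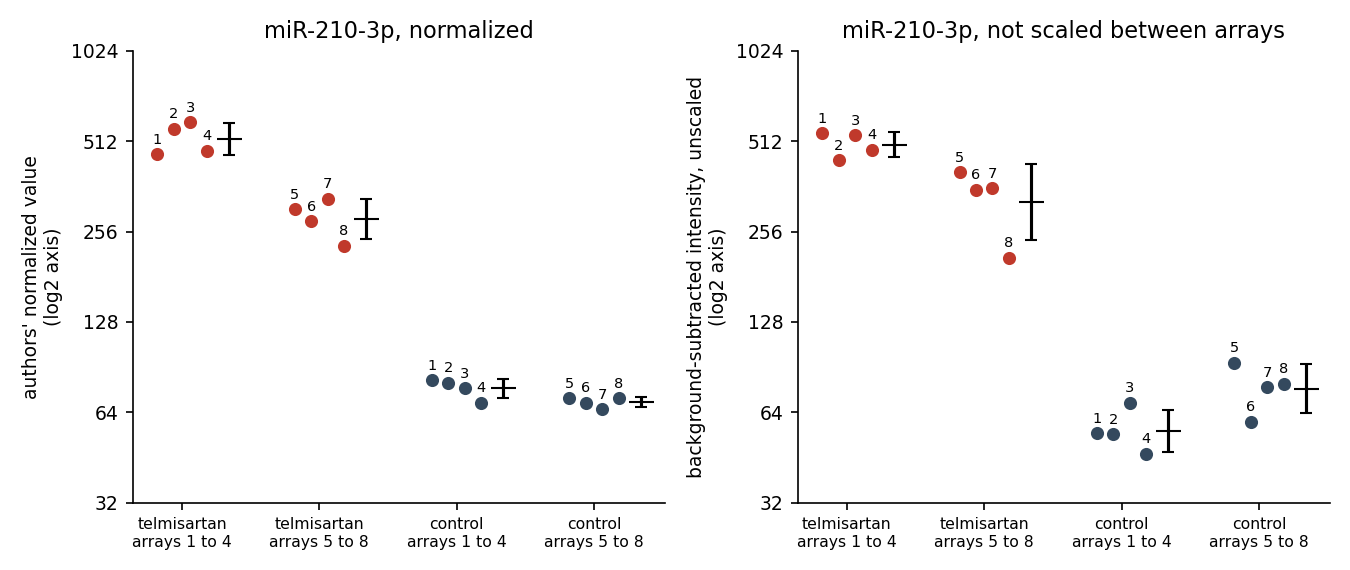
miR-210-3p on each array, as the authors' normalized intensity (left) and as background-subtracted intensity without scaling between arrays (right), both on log2 axes; points carry the array number, and the bars give the mean and SD of the log2 values of each set of 4 arrays. Telmisartan arrays 1 to 4 lie above telmisartan arrays 5 to 8 in both panels, and all 8 telmisartan arrays lie above all 8 control arrays.

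The normalized level of miR-210-3p averaged 404 ± 137 in telmisartan and 73.2 ± 5.82 in control (mean ± SD, n = 8 each), a ratio of 5.53. On the log2 scale the means were 8.58 ± 0.51 in telmisartan and 6.19 ± 0.11 in control, a difference of 2.39 (SE 0.18), or 5.26-fold. This difference chose the miRNA and carries no test. The values next to it, just outside the choice, were those of miR-193b-3p at 2.43-fold and of the joint miR-365a/b-3p probe at 1.97-fold. In this comparison 37 of the 382 probes (9.69%) rose and 28 (7.33%) fell, and 9 (2.36%) had every telmisartan array above every control array.

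The separation was also present before the authors' quantile normalization. Background-subtracted intensities of miR-210-3p, with no scaling between arrays, were 544, 443, 535, 479, 403, 353, 357 and 209 on telmisartan arrays 1 to 8, against 54.5, 54.2, 68.8, 46.6, 93.8, 59.6, 77.6 and 79.7 on control arrays 1 to 8. The means were 415 ± 111 in telmisartan and 66.9 ± 15.96 in control (SD, n = 8 each), a ratio of 6.21. The groups again did not overlap. Within the sets the order of the control arrays turned: unscaled control values were 56.1 ± 9.26 on arrays 1 to 4 and 77.7 ± 14.0 on arrays 5 to 8 (SD, n = 4 each). The exact permutation test, two-sided, gave p = 0.0571 (0.0857 adjusted over 6 such tests).

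The 3p signal stood well clear of the detection level in both groups. The raw intensity of miR-210-3p was 10.2 to 19.5 times the detection level on telmisartan arrays (median 16.3) and 2.41 to 5.24 times on control arrays (median 3.44). The control level was thus a measured value on all 8 arrays, and the fold change is not a bound.

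The second question was whether the rise was equal in the 2 array sets, which does not depend on the mean difference that chose the miRNA. miR-210-3p was 6.78-fold higher with telmisartan within arrays 1 to 4 and 4.08-fold higher within arrays 5 to 8. The log2 differences were 2.76 and 2.03 (SE 0.11 each), so that the effect in arrays 1 to 4 exceeded that in arrays 5 to 8 by 0.73 (SE 0.16, limma interaction, adjusted p = 0.00696). Unequal effects were common on these arrays: 135 of the 382 probes (35.3%) passed this test, and 72 (18.8%) did so with the larger effect in arrays 1 to 4. By size of the interaction, miR-210-3p ranked 82 among all 382 probes.

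In the normalized values, the telmisartan group was the one in which the array sets of miR-210-3p differed. The telmisartan arrays of miR-210-3p averaged 524 ± 64.1 in arrays 1 to 4 and 285 ± 42.5 in arrays 5 to 8 (SD, n = 4 each), with no overlap; 32 probes (8.38%) had every telmisartan array of 1 to 4 above every one of 5 to 8, and 54 (14.1%) did not overlap in either direction. On the log2 scale these were 9.02 ± 0.18 and 8.14 ± 0.22, a difference of 0.88 (SE 0.11, 1.84-fold; limma, adjusted p = 0.000454). Of the 382 probes, 22 (5.76%) passed with higher values in telmisartan arrays 1 to 4 and 18 (4.71%) with lower, and miR-210-3p had the smallest p of all and the 6th largest difference by size. The exact permutation test of these 4 against 4 arrays gave p = 0.0286, the smallest that 70 splits allow (two-sided, 0.0571 after adjustment over 6 such tests).

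The control arrays differed little. miR-210-3p averaged 77.0 ± 5.67 in control arrays 1 to 4 and 69.3 ± 2.66 in control arrays 5 to 8 (SD, n = 4 each), a log2 difference of 0.15 (SE 0.11, limma, adjusted p = 0.236; two-sided exact permutation p = 0.114). These neighbouring levels did not differ beyond their spread, while 275 of the 382 probes (72%) passed between the same control arrays, 134 of them (35.1%) with higher values in arrays 1 to 4. By size, the control difference of miR-210-3p ranked 325. Between the telmisartan sets 40 of the 382 probes (10.5%) were called. Of the 107 probes not called between the control sets, 7 were called there, miR-210-3p among them. The other 6 were miR-3940-5p, miR-6765-5p, miR-130b-3p, miR-8485 and miR-23b-3p, all higher in telmisartan arrays 1 to 4, and miR-422a, lower there. Both the flatness of the control arrays and the call between the telmisartan arrays depended on scaling. Without scaling the telmisartan difference was 0.63 (limma, adjusted p = 0.0521) and the control difference -0.47 (limma, adjusted p = 0.0656). The background level was 22.6 to 33.6 on telmisartan arrays 1 to 4 and 19.9 to 24.0 on telmisartan arrays 5 to 8, and 23.0 to 32.5 on control arrays 1 to 4 and 14.9 to 23.1 on control arrays 5 to 8. Its part in the set differences was not tested.

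**Figure D2:**
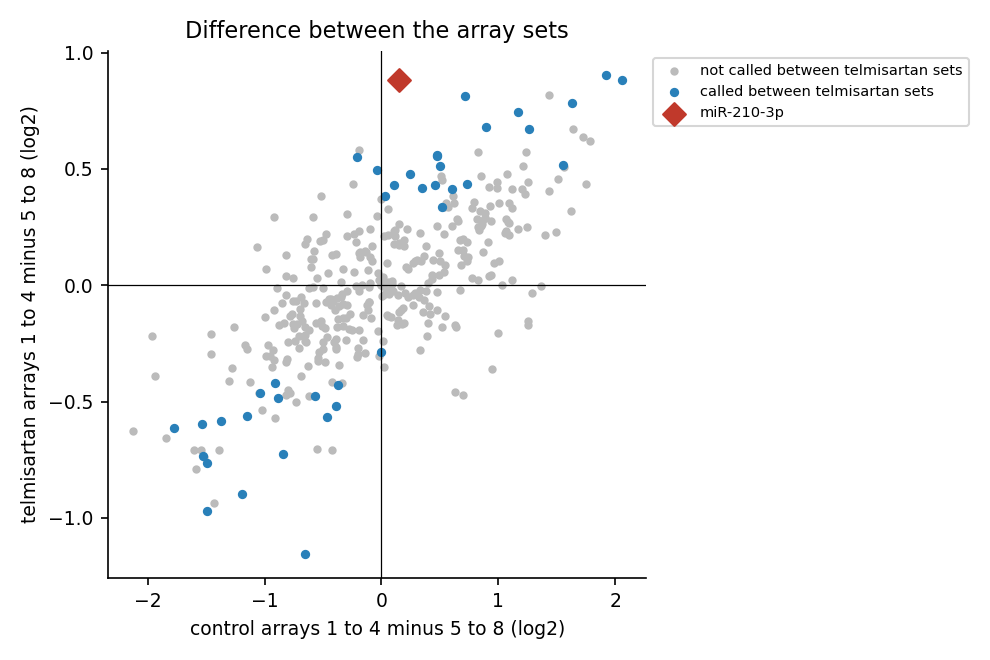
For each of the 382 probes, the log2 difference between arrays 1 to 4 and arrays 5 to 8 within telmisartan (vertical) against the same difference within control (horizontal); blue points passed an adjusted p under 0.05 within telmisartan and the red diamond is miR-210-3p. miR-210-3p lies at 0.88 within telmisartan and 0.15 within control.

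Normalization changed how far the 2 sets lay apart, and less so the mean rise. With every probe placed on the same scale by the median of each array, miR-210-3p was higher by 2.76 within arrays 1 to 4 and 2.11 within arrays 5 to 8 on the log2 scale. Without scaling the differences were 3.17 and 2.07. With quantile normalization over each array's detected probes, which kept the 646 probes with detection in 6 or more telmisartan or control arrays and set undetected values to a floor, they were 3.76 and 1.52. There the median of all probes was itself 0.90 higher within arrays 1 to 4 and -0.45 within arrays 5 to 8. Relative to the median of all probes, the mean rise of miR-210-3p lay between 2.40 and 2.44 in all settings but normexp, where it was 1.79. In the scanner software's own globally normalized values, which use 1 factor per array, 7 of the 8 telmisartan arrays lay above every control array: telmisartan array 7, at 343, was below control array 5, at 474, and control array 6, at 391.

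**Figure D3:**
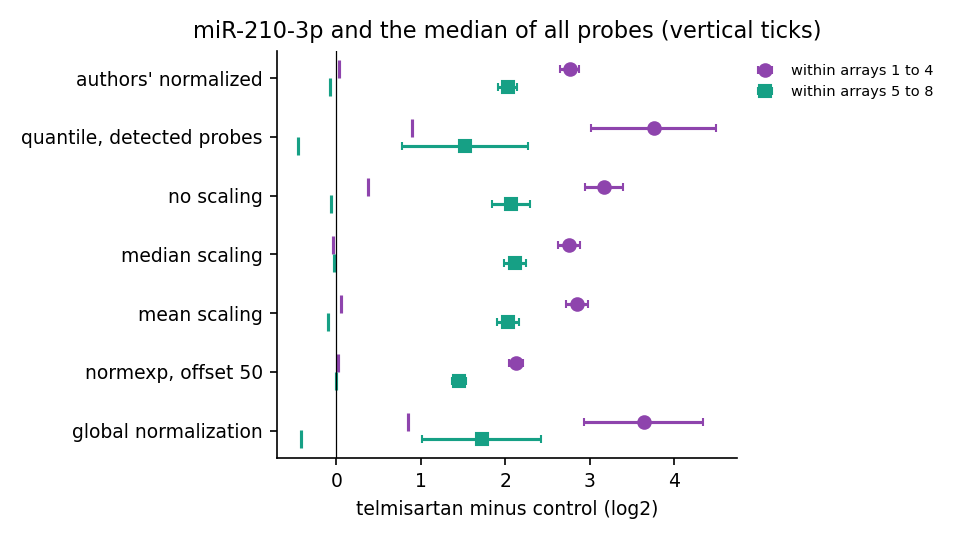
Log2 difference of miR-210-3p, telmisartan minus control, within arrays 1 to 4 (circles) and within arrays 5 to 8 (squares), with SE from the limma fit, under 7 normalizations; vertical ticks give the median of all probes. Every difference of miR-210-3p is above 0, from 1.45 with normexp within arrays 5 to 8 to 3.76 with quantile normalization over detected probes within arrays 1 to 4, where the medians also part.

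miR-210-5p, the passenger arm of the same hairpin, lay at the limit of detection in both groups. It was detected on 5 of 8 telmisartan arrays and on 4 of 8 control arrays, and on 4 and 3 when 3 SD above background were required. Its raw intensity minus background was 1.31, 3.51, 3.78, 2.66, 3.41, 6.77, 4.23 and 3.54 on telmisartan arrays 1 to 8, against 1.11, 1.98, 1.81, 1.51, 6.20, 5.06, 4.90 and 4.15 on control arrays 1 to 8. The groups overlapped. The means were 3.65 ± 1.54 in telmisartan and 3.34 ± 1.95 in control (SD, n = 8 each), a ratio of 1.09, and raw intensity never exceeded 1.25 times the detection level in telmisartan or 1.23 times in control. Values this close to background give no firm fold change for miR-210-5p in either direction.

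**Figure D4:**
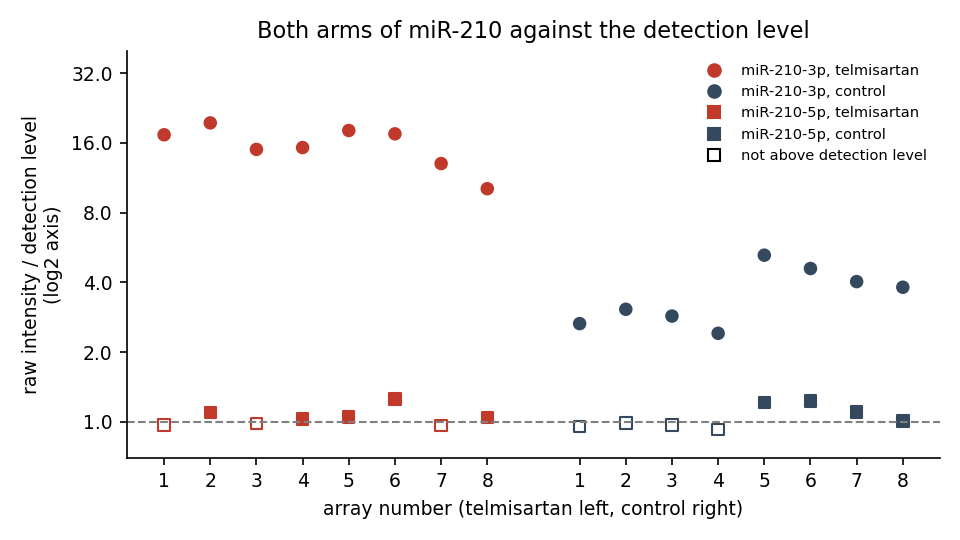
Raw intensity of each arm divided by the array's detection level, on a log2 axis, for telmisartan arrays (left) and control arrays (right); circles are miR-210-3p, squares miR-210-5p, open symbols are not above the detection level (dashed line). miR-210-3p lies between 2.41 and 19.5 on all 16 arrays, and miR-210-5p between 0.925 and 1.25.

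Detection of miR-210-5p also differed between the array sets. It was detected on 2 of 4 telmisartan arrays in set 1 to 4 and 3 of 4 in set 5 to 8, and on 0 of 4 control arrays in set 1 to 4 and 4 of 4 in set 5 to 8. Within control, raw intensity minus background was 1.60 ± 0.38 on arrays 1 to 4 and 5.08 ± 0.85 on arrays 5 to 8 (SD, n = 4 each). The two-sided exact permutation test gave p = 0.0286, the smallest possible (0.0571 adjusted over 6 such tests). Within telmisartan the values were 2.81 ± 1.11 and 4.49 ± 1.57 (exact permutation p = 0.143). The same pattern of detection, on every control array of 5 to 8 and on none of 1 to 4, was seen for 42 of the 2565 probes (1.64%). Arrays on which miR-210-5p was detected had 661 to 1885 detected probes, and the others 454 to 947. The part of this breadth in the detection of the arm was not tested.

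Other miRNAs linked to hypoxia were read from fixed lists to place miR-210. Of 19 miRNAs reported as raised in hypoxic cancer cells, 16 were in the normalized table. With telmisartan, 5 of these rose and 1 fell, and 10 did not pass (37.5% called, against 17% of the 382 probes). Their median log2 fold change was 0.22, against -0.01 over all probes, and 12 of the 16 values were positive. These changes were much smaller than that of miR-210-3p. The 5 that rose came from 2 groups, the miR-23 and miR-24 genes and the miR-181 family, and sequences of the pairs that share a seed are shown with the seed in capitals.
hsa-miR-23a-3p: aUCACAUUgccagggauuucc
hsa-miR-23b-3p: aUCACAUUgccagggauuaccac
hsa-miR-181a-5p: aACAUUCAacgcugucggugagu
hsa-miR-181b-5p: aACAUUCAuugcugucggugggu
Members of a pair are near-identical, so their probes may share RNA and they do not count as separate evidence.

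miR-181a-5p, a regulator of lymphocyte signalling, rose 1.46-fold (limma, adjusted p = 0.00146), or 1.54-fold in arrays 1 to 4 and 1.38-fold in arrays 5 to 8. Its normalized intensity was 351 to 477 on telmisartan arrays (median 404) and 220 to 344 on control arrays (median 290), with no overlap. miR-181b-5p rose 1.27-fold (limma, adjusted p = 0.0130), or 1.197-fold in the first set and 1.35-fold in the second. Its intensities were 166 to 235 in telmisartan (median 213) and 132 to 191 in control (median 158), with overlap. miR-181a-3p, the other arm of miR-181a and also on the list, had a fold of 0.852 that did not pass (limma, adjusted p = 0.590). Split by set, the folds of miR-181a-3p were 0.704 in arrays 1 to 4 and 1.03 in arrays 5 to 8.

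miR-23a-3p, which is made from one transcript with miR-27a and miR-24, rose 1.36-fold (limma, adjusted p = 0.00250), with 1195 to 1794 in telmisartan (median 1653) and 962 to 1357 in control (median 1162). miR-23b-3p rose 1.44-fold (limma, adjusted p = 0.0147), with 1026 to 2229 in telmisartan and 834 to 1260 in control. miR-24-3p, a partner of both miR-23 genes, rose 1.27-fold with no overlap, 593 to 715 in telmisartan and 463 to 564 in control (limma, adjusted p = 0.00106). Split by array set, 1 to 4 and then 5 to 8, miR-23a-3p had folds of 1.33 and 1.40, with 1.56 and 1.32 for miR-23b-3p, and 1.23 and 1.31 for miR-24-3p. miR-27a-3p, from the same transcript as miR-23a, had a fold change of 1.05 that did not pass (limma, adjusted p = 0.934).

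miR-93-5p, a member of the miR-17 family from the miR-106b cluster, was the one that fell, to 0.831 of control (limma, adjusted p = 0.0296), with 426 to 593 in telmisartan and 477 to 681 in control. The fold was 0.841 in arrays 1 to 4 and 0.822 in arrays 5 to 8. This call was lost in 13 of 26 alternative settings. The rises of miR-23a-3p, miR-23b-3p and miR-24-3p held in 21 of 26 settings, that of miR-181b-5p in 22 and that of miR-181a-5p in 24. Most of these settings reused the authors' normalized values, with 1 array left out or another fit. Every loss of these rises came with another normalization. Among the other normalizations, only normexp kept the calls of miR-23a-3p, miR-23b-3p and miR-24-3p. miR-26a-5p and miR-30b-5p had folds of 1.41 and 1.39 without passing (limma, adjusted p = 0.209 and 0.301). Their folds in arrays 1 to 4 and arrays 5 to 8 were 1.09 and 1.82 for miR-26a-5p, and 1.11 and 1.76 for miR-30b-5p.

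**Figure D5:**
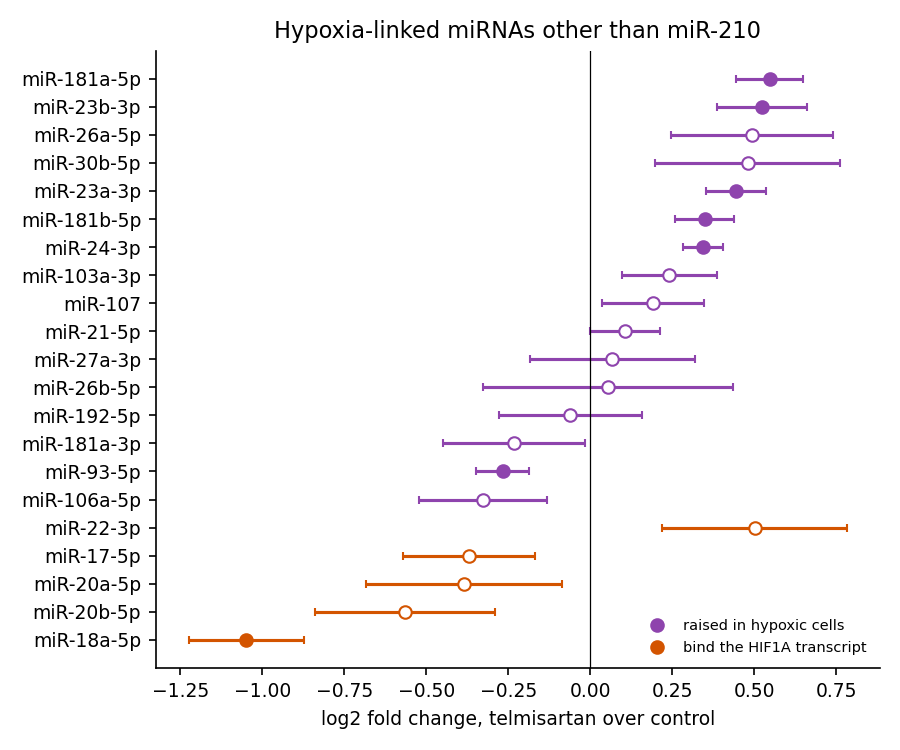
Log2 fold change of telmisartan over control, with SE, for the tested miRNAs of 2 lists; filled points passed an adjusted p under 0.05 by limma. In the upper list 5 points passed above 0 and 1 below, and in the lower list miR-18a-5p passed below 0.

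Of 4 further miRNAs reported as induced by HIF, none could be tested. miR-155-5p was detected on 2 telmisartan and 1 control arrays, miR-373-3p on 2 telmisartan and 0 control arrays, miR-382-5p on 3 telmisartan and 1 control arrays, and miR-424-5p on 5 telmisartan and 6 control arrays. Of 8 miRNAs reported to bind the transcript of HIF1A, the oxygen-regulated subunit of HIF-1, 5 were tested, with 1 lower and 4 not passing (20% called, against 17% of the 382 probes). With the array set as a block the calls were 1 higher and 2 lower, where 97 of the 382 probes (25.4%) passed. The one that fell was miR-18a-5p, of the miR-17-92 cluster, at 0.483 of control (limma, adjusted p = 0.000869). Its normalized intensity was 70.6 to 120 on telmisartan arrays (median 100.0) and 126 to 272 on control arrays (median 209), with no overlap. Its fold was 0.402 in arrays 1 to 4 and 0.581 in arrays 5 to 8. The others had folds of 0.774 for miR-17-5p, 0.766 for miR-20a-5p, 0.676 for miR-20b-5p and 1.41 for miR-22-3p.

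The list calls rested on how arrays were scaled. Without scaling 2 of the 16 miRNAs of the first list passed, with median or mean scaling 1 each, and with quantile normalization over detected probes or the scanner software's normalization none. Over all probes, the same settings called 31, 30, 40, 0 and 1. Log2 fold changes without scaling were 0.49 for miR-23a-3p, 0.61 for miR-23b-3p and 0.43 for miR-24-3p. In the normalized table they were 0.44, 0.52 and 0.34, and with median scaling 0.30, 0.43 and 0.24. The median of all probes was itself 0.18 without scaling, against -0.0079 in the normalized table and -0.0064 with median scaling. With the array set as a block 6 members of the list were higher and 1 lower, where 25.4% of the 382 probes passed.

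The neighbourhood of MIR210 was examined next. Within 1 Mb of MIR210 the array holds 4 probes, those of MIR6743 and MIR6744, of which 1 was in the normalized table and could be tested. miR-6743-5p, detected on all 16 arrays, had a log2 fold change of -0.0034 (SE 0.35, limma, adjusted p = 1). This mean joins effects of opposite sign, positive in arrays 1 to 4 and negative in arrays 5 to 8. The effects differed by 1.16 (limma interaction, adjusted p = 0.00868). miR-6743-3p was detected on 8 telmisartan and 7 control arrays, miR-6744-5p on 4 telmisartan and 4 control arrays, and miR-6744-3p on 3 telmisartan and 2 control arrays.

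Finally, the array-to-array pattern of miR-210-3p left after the means of the 4 groups were removed was set against 379 other probes over the 16 arrays. The 5 most similar were miR-4695-5p (Pearson r = 0.657), miR-6879-5p (0.633), let-7b-5p (0.604), miR-4632-5p (0.595) and let-7d-5p (0.572), where the median r was 0.0097. The 3 least similar were miR-378a-3p (-0.754), miR-378f (-0.692) and miR-378e (-0.686), which share most of their sequence. These probes share arrays and their scaling, so r is a description without a test. Without scaling the 3 miR-378 probes had r of 0.726, 0.572 and 0.608, and the median over all probes was 0.592. The negative r of the miR-378 probes was therefore not kept in unscaled values. With median scaling r was 0.390 for miR-4695-5p, 0.228 for miR-6879-5p, 0.712 for let-7b-5p, 0.453 for miR-4632-5p, 0.615 for let-7d-5p and 0.147 for miR-378a-3p, so the order of likeness depended on the scaling.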

How the data were processed

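Total RNA of OE19 cells was labelled and hybridized to Toray human miRNA oligo chips, 1 chip per sample. The authors deposited, per array, raw intensity, background-subtracted and globally normalized intensities, and a table of quantile-normalized intensities. That table was rebuilt by quantile normalization of intensities with background taken off, for the 382 probes that all 16 arrays detected. The largest relative difference was 4.88e-10. The table held the main values here, on the log2 scale. 10 spots marked as not good were left out of the other normalizations.

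limma 3.58.1 in R 4.3.3 (lmFit, eBayes, Benjamini-Hochberg over all probes) gave log2 differences. One fit had the treatment, and another the 4 groups of treatment and array set. Precision is limited by how many arrays there were. This step was tested on simulated data that had the spread within the 4 groups. For the treatment fit these data held no difference between array sets. That test therefore does not cover the set differences seen here. Single values were compared by exact permutation tests. miRNA names and sequences are from RefSeq (GRCh38.p14). The miRNAs and lists were chosen with earlier results of these data known. Named miRNAs are both arms, list members that passed, the 5 highest and 3 lowest by r, sequence neighbours and probes near MIR210. miR-26a-5p, miR-30b-5p, miR-27a-3p, miR-181a-3p and the probes called between array sets were named after their values were seen.

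Alternatives were quantile normalization over detected probes, median, mean or no scaling, normexp with offset 50, an intensity trend, the exact Mann-Whitney test, blocks for replicate number or array set, and each array left out. The global normalization was chosen after seeing the data. Deviations from group means of same-numbered arrays correlated at 0.149 to 0.864, all 8 numbers over 0.1, but from -0.458 to 0.454 once the array sets were removed; the labels give no other pairing. Xenograft arrays were not analysed here.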

Additional observations from a re-analysis of the deposited data

Results flagged for a closer look

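The treatment effect of miR-210-3p in arrays 1 to 4 exceeded that in arrays 5 to 8 by 0.73 on the log2 scale (limma interaction, adjusted p = 0.00696), a difference between the array sets. The effect on miR-18a-5p also differed between the sets, at -0.53 (limma interaction, adjusted p = 0.0313), so its fall was larger in arrays 1 to 4, with a fold of 0.402 there and of 0.581 in arrays 5 to 8. The effect on miR-6743-5p differed by 1.16 (limma interaction, adjusted p = 0.00868), where its mean effect over all arrays did not pass. That effect was positive in arrays 1 to 4 and negative in arrays 5 to 8. Of all 382 probes, 35.3% passed this interaction test. miR-93-5p on control array 7, at a log2 normalized value of 8.90, lay far below the other 7 control arrays. It was the 1 such array among 60 ends of groups examined, and chance sets about 1 in 20 groups apart in this way.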

How the results depend on the processing

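The log2 difference of miR-210-3p lay between 2.03 and 2.76 in 27 settings and was 1.79 with normexp. Both ends of that range came from 1 array set alone, 2.03 from arrays 5 to 8 and 2.76 from arrays 1 to 4. Apart from normexp, settings that used both sets gave 2.30 to 2.68. The difference of miR-210-3p was 2.30 to 2.50 with each array left out in turn. Its interaction with the array set lay between 0.63 and 1.10 in 21 settings (limma, adjusted p 0.00286 to 0.0178; 0.63 to 0.81 without 1 array) and lost its call at 2.23 (0.518) with quantile normalization over detected probes and 1.92 (0.410) with global normalization. The telmisartan set difference lost its call in 3 settings: 0.91 (1) with detected probes, 0.63 (0.0521) without scaling and 0.88 (1.00) with global normalization. The control set difference turned to -1.33 (0.164), -0.47 (0.0656) and -1.03 (0.266) in the same settings. The 6 calls of the hypoxia list became 0 with detected probes, 2 without scaling, 1 with median scaling, 1 with mean scaling and 0 with global normalization. In these settings 0%, 8.12%, 7.85%, 10.5% and 0.262% of all probes passed, against 17% in the main fit. The list had 16 tested members, or 18 with detected probes. Leaving out 1 array gave 5 to 6 calls, where 13.4% to 18.3% of all probes passed. The 1 call of the HIF1A list became 0 with detected probes and 0 with global normalization. With the array set as a block it became 3, where 25.4% of the 382 probes passed. Leaving out 1 array gave 1 to 2 calls, the 2 without control array 7. The other HIF-induced miRNAs and the probes near MIR210 had too few tested members to speak of stability. miR-6743-5p, never called, turned sign at 0.14 with detected probes, 0.21 without scaling, 0.022 with median scaling, 0.028 with mean scaling and 0.27 with global normalization, and ranged from -0.16 to 0.19 without 1 array. miR-6729-5p turned at 0.10 with detected probes, 0.15 without scaling and 0.21 with global normalization. The cause of these changes was not tested. With the replicate number as a block, the miR-210-3p difference was 2.39 (SE 0.15) and its interaction 0.73 (limma, adjusted p = 0.00379). The hypoxia list had 5 higher and 1 lower. The hypoxia and HIF1A list members that passed kept their calls with this block. Over all probes 75 (19.6%) passed with it, against 65 (17%) in the main fit. With quantile normalization over detected probes, no scaling and global normalization the median of all probes was 0.23, 0.18 and 0.24, against -0.0079 in the main fit. With 382 probes detected on all arrays, miR-210-5p had no fitted value.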
